A study of Mus musculus with 13 samples.

Results

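The 9 MAP kinase dual-specificity phosphatase genes Dusp1, Dusp2, Dusp4, Dusp5, Dusp6, Dusp7, Dusp8, Dusp10 and Dusp16 were taken by symbol from a count table of 48587 mouse genes, and all 9 were among the 13246 genes that passed the filter on low counts. RNA had been sequenced from sciatic nerve macrophages (4 libraries), optic nerve macrophages (4 libraries) and brain microglia (5 libraries) of C57BL/6J mice. No treatment is given for these libraries, and the design text describes them only by tissue. The sciatic nerve belongs to the peripheral nervous system, and the optic nerve and the brain to the central nervous system. The sources used here give neither age, sex and cell sort nor the number of animals behind a library, so p-values measure the spread between these libraries, which may be technical.

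MAP kinases are the last step of a relay in which a MAP kinase kinase kinase activates a MAP kinase kinase, which in turn phosphorylates the MAP kinase on a threonine and a tyrosine of its activation loop. The phosphatases described here remove both phosphates and so switch off ERK, JNK or p38. They are grouped by where the protein sits and which kinase it prefers. Dusp1, Dusp2, Dusp4 and Dusp5 encode nuclear phosphatases whose genes are themselves switched on by MAP kinase signalling. Dusp6 and Dusp7 encode cytosolic phosphatases with a preference for ERK, and Dusp8, Dusp10 and Dusp16 encode phosphatases with a preference for JNK and p38. In macrophages, Dusp1 is known as a brake on p38 signalling and on cytokine production after activation through Toll-like receptors.

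The promoters of 4 members are printed because they differ in the motifs they hold, and 8 of the 9 members matched an entry of the RefSeq promoter table on GRCm38.p6. Each entry holds 250 bases before to 50 bases after the transcript start, and only bases before the start that no exon of the gene covers are printed here, 5′ to 3′ on the strand of the gene. Capitals mark the cAMP response element TGACGTCA and its half-site TGACG on either strand in Dusp1 and Dusp8, and the CArG boxes of the serum response factor and a half-site in Dusp5. Dusp6 is shown as the contrast, with none of the motifs searched. The Dusp1 stretch is chr17:26508520-26508722 on the minus strand, that of Dusp5 is chr19:53528895-53529108 on the plus strand, that of Dusp8 is chr7:142095285-142095534 on the minus strand, and that of Dusp6 is chr10:99262981-99263230 on the plus strand.
Dusp1: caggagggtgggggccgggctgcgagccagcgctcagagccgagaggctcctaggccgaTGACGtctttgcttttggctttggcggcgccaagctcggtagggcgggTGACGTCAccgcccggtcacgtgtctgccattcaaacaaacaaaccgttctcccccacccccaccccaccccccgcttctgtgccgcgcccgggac
Dusp5: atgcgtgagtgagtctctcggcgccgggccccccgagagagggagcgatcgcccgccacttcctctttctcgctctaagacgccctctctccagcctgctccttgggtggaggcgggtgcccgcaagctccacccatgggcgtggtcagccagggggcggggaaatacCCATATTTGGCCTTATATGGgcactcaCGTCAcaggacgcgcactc
Dusp8: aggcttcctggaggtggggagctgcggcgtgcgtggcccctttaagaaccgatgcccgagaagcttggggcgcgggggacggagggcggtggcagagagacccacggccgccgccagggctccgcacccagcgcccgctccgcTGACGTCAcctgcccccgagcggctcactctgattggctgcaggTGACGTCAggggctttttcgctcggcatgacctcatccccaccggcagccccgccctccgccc
Dusp6: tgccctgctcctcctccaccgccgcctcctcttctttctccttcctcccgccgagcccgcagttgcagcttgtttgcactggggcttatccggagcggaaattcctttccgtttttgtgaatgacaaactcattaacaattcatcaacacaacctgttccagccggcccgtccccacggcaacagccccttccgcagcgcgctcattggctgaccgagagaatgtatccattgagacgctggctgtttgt

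Positions are those of the 5′-most base of a match on the strand of the gene, counted back from the transcript start with -1 as the base before it. Dusp1 had the full cAMP response element at -143 and a separate half-site at -191, and Dusp8 had the full element at both -107 and -63. Dusp5 had 2 CArG boxes side by side at -82 and -72 and a half-site at -55. The half-site also occurred at -70 in Dusp16 and at 5 in Dusp2. The full element was thus present in 2 of 8 members, against 1.79% of 32851 RefSeq promoters, and the half-site, which lies inside every full element, in 5 of 8 members, against 20.8%. A CArG box was found in 1 of 8 members, against 1.63% of promoters. The EGR motif GCGNGGGCG, which can overlap a GC box, was found in Dusp2 at -98 and in Dusp16 at -138, against 5.55% of promoters, and the E-box CACGTG in Dusp1 at -126 and in Dusp2 at -109, against 7.15%. The GC box GGGCGG occurred in 7 of 8 members, with Dusp6 as the exception, against 35.7% of promoters. The AP-1 motif TGANTCA (7.81% of promoters), the NF-kB motif (8.46%), the ETS motif CCGGAAG (8.86%) and the TATA motif TATAAA (13.6%) had no match in these 8 windows on either strand. A match describes these letters only, and a motif with no match says only that the letters are not in this window.

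**Figure D1:**
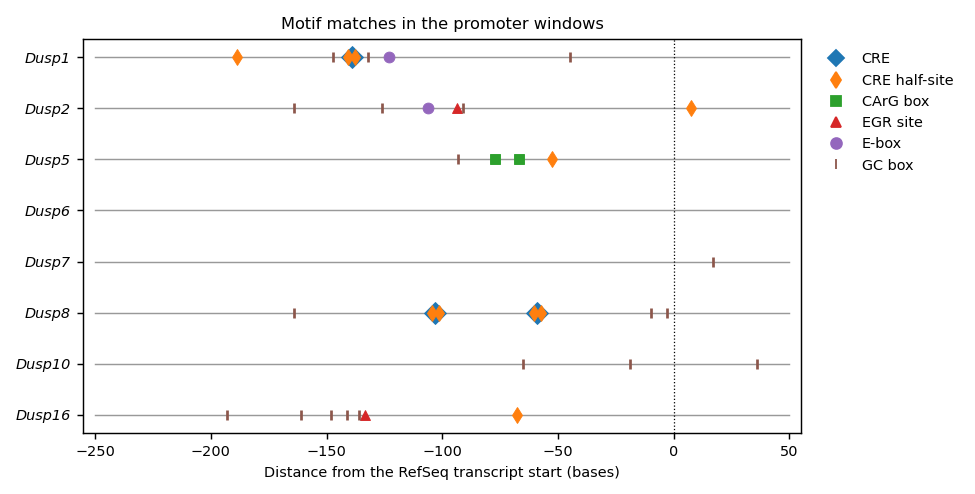
Motif matches in the promoter windows of 8 members. The x axis is the distance in bases from the RefSeq transcript start (dotted line), each row is a gene and each symbol is centred on a match on either strand. Dusp1 and Dusp8 carry the cAMP response element, Dusp5 carries 2 CArG boxes, and Dusp6 carries no symbol.

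The 3′ untranslated regions differed within the family in the AU-rich motif TATTTAT, a letter pattern known from short-lived mRNAs and bound by tristetraprolin. Dusp1 held 3 copies in 690 bases, and 1.26% of genes with a 3′ untranslated region within 20% of that length held as many. Dusp2 held 1 copy in 581 bases, where 16% of genes of like length held at least 1. Dusp8 held 2 copies in 2370 bases, where 16.9% of genes of like length held as many. The other 6 members held none. A copy was thus found in 3 of 9 members, near the share of 27.8% over 19335 genes. Of the shorter AU-rich pattern ATTTA, which lies inside TATTTAT, Dusp10 and Dusp16 held 3 copies each and Dusp4 held 2. Dusp5 and Dusp6 held 1 copy of it each, and Dusp7 held 0. For each of the 3 genes, 30 bases around a copy are given to show its context, with the motif in capitals.
Dusp1: agctggtcctTATTTATttaacacccccct
Dusp2: aacagcactttaTATTTATatagaacattg
Dusp8: ttcgatttttTATTTATttaagctagtgat

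Libraries held 15.7 to 18.2 M counts (1 M is 1e+06) in sciatic nerve, 16.5 to 20.4 M in optic nerve and 10.9 to 23.5 M in brain. Levels are CPM, counts scaled to 1e+06 by the library size after TMM scaling. The summed level of 10 microglia markers was 2890 to 3240 CPM in sciatic nerve, 30400 to 35000 CPM in optic nerve and 33900 to 61800 CPM in brain, and that of 10 nerve and border macrophage markers was 23000 to 33300, 200 to 371 and 8.52 to 26.1 CPM. Of other cells' markers, the summed T, B and NK cell list reached 3.60 CPM at most, the neutrophil list 2.30 CPM and the mast cell list 8.73 CPM. Cd3e of T cells and Mpo and Ly6g of neutrophils were at 0 in every library. Retnlg of the neutrophil list averaged 1.64, 0.464 and 0 CPM in sciatic nerve, optic nerve and brain, and was called higher in both nerves than in brain. The summed fibroblast markers, led by Gsn in each tissue, were 197 to 412 CPM in sciatic nerve, 12.5 to 41.3 CPM in optic nerve and 2.27 to 7.65 CPM in brain. The monocyte marker Ccr2 averaged 458, 9.49 and 4.01 CPM in the same order of tissues. Summed dendritic cell markers were 353 to 456 CPM in sciatic nerve, led by Cd209a, 15.0 to 59.6 CPM in optic nerve and 2.99 to 7.63 CPM in brain. Summed oligodendrocyte markers were 166 to 236, 267 to 333 and 123 to 178 CPM, and summed astrocyte markers 20.6 to 88.7, 82.6 to 106 and 184 to 243 CPM, in sciatic nerve, optic nerve and brain. The astrocyte sum was led by Gja1 in sciatic nerve and by Slc1a3 in optic nerve and brain. Gfap of that list had another order, with means of 0.0163, 6.35 and 0.0980 CPM in sciatic nerve, optic nerve and brain. The part of these cell types in the results was not tested. Brain library 1 stood apart with the lowest total, 3.79% mitochondrial counts and a mean correlation of 0.892 with the other brain libraries, against 0.923 to 0.937 for the others. Brain library 2 also stood apart, with a chi-square per degree of freedom over genes of 133 to 166 against brain libraries 3 to 5, which differed from each other by 16.1 to 17.1. Without both, the same directions held for every call listed next, and the counts were 7 higher and 2 lower against brain in sciatic nerve and in optic nerve, and 1 higher (Dusp1) and 1 lower (Dusp5) between the nerves.

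In sciatic nerve macrophages 7 of the 9 members were higher than in brain microglia and 2 were lower, where a call is an adjusted p under 0.05 (Benjamini-Hochberg over all 13246 genes, edgeR's quasi-likelihood test). Dusp1, Dusp2, Dusp4, Dusp5, Dusp8, Dusp10 and Dusp16 rose, and Dusp6 and Dusp7 fell. Over all genes tested, 24.1% were called higher and 24.3% lower in this comparison, 48.4% in either direction. In optic nerve macrophages 6 members rose against brain and 2 fell, against 19.6% and 17.4% of all genes (36.9% in either direction), and Dusp10 was not called. With limma voom 5 members were called higher there, without Dusp4 (adjusted p = 0.0673). Between the nerves 1 member, Dusp5, was lower in sciatic nerve and 0 were higher, against 10.9% of all genes in each direction. At an unadjusted p under 0.05 edgeR had 1 member higher, Dusp1. At an adjusted p under 0.05 the count of members called higher was 1 with limma voom and 0 with DESeq2. The median log2 fold change of the 9 members over brain was 4.02 in sciatic nerve and 4.33 in optic nerve, and it was -0.21 between the nerves (sciatic over optic). The medians over brain were the values of Dusp4, a member near the limit of detection (SE 1.35 and 1.36). Dusp4, counted as higher in both nerves, passed the filter on low counts only through the nerve libraries. Over all genes the medians were -0.09, -0.08 and 0.00. The comparisons with brain share the brain libraries, so they are not independent of each other. In bulk libraries, fewer cells with a transcript and less of it per cell cannot be told apart.

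**Figure D2:**
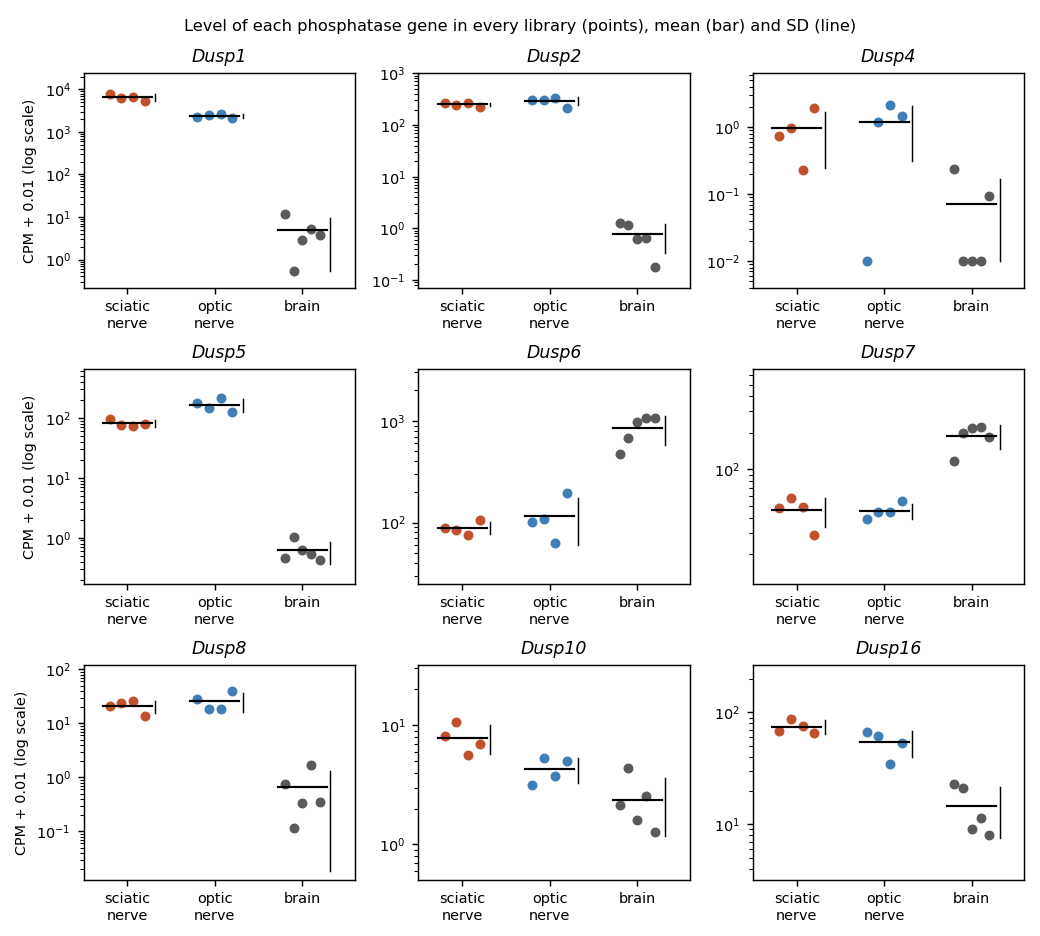
Level of each member in each of the 13 libraries. The y axis is CPM plus 0.01 on a log scale that differs between panels, points are libraries, the bar is the mean and the line beside it the SD. Dusp1, Dusp2, Dusp5 and Dusp8 lie far above brain in both nerves, whereas Dusp6 and Dusp7 lie below it.

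Among the nuclear, inducible members, Dusp1 (ENSMUSG00000024190.7, GRCm38 chr17:26505590-26562128, minus strand) had the highest level per kb of exon in the nerves. Its level was 7999, 6203, 6489 and 5224 CPM in the 4 sciatic nerve libraries, 2251, 2464, 2666 and 2176 CPM in the 4 optic nerve libraries, and 12.1, 0.534, 2.80, 5.34 and 3.72 CPM in the 5 brain libraries. No library of a tissue overlapped another tissue's, and libraries of a nerve were alike while the brain libraries, with 465 counts in all, spread widely. The mean was 6479 ± 1149 CPM in sciatic nerve and 2389 ± 221 CPM in optic nerve (SD, n = 4 each), against 4.90 ± 4.38 CPM in brain (SD, n = 5). The ratio of means was 1320 for sciatic nerve over brain and 488 for optic nerve over brain. The log2 fold change over brain was 10.41 (SE 0.68, adjusted p = 8.37e-09) in sciatic nerve and 8.97 (SE 0.64, adjusted p = 5.7e-08) in optic nerve. Without brain libraries 1 and 2 these were 10.67 and 9.24. The level in sciatic nerve was 2.71 times that in optic nerve, but the log2 fold change of 1.44 (95% interval 0.35 to 2.53) missed the threshold with an adjusted p of 0.0575. The call changed with the brain libraries in the fit, and it was also made with no filter on low counts and with limma voom. The adjusted p was 1.58e-05 when only the nerves were fitted, 0.00832 without brain library 1 and 0.00576 without brain library 2. Dusp1 alone made up 0.431 to 0.671% of all counts in sciatic nerve libraries and 0.219 to 0.242% in optic nerve libraries.

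Dusp2 (ENSMUSG00000027368.6, chr2:127336159-127338376, plus strand), a nuclear phosphatase best known from blood cells, was close in the nerves and nearly silent in brain. Its level was 270.2, 244, 268 and 227 CPM in sciatic nerve, 305, 306, 336 and 218 CPM in optic nerve, and 1.28, 1.14, 0.606, 0.644 and 0.167 CPM in brain. The libraries of both nerves overlapped each other and lay far above every brain library. The means were 252 ± 20.6, 291 ± 51.2 and 0.768 ± 0.449 CPM in sciatic nerve, optic nerve and brain (SD, n = 4, 4 and 5). Over brain, the log2 fold change was 8.39 (SE 0.37, adjusted p = 1.26e-10) in sciatic nerve and 8.60 (SE 0.37, adjusted p = 3.43e-10) in optic nerve. Sciatic against optic nerve gave -0.21 (95% interval -0.81 to 0.39, adjusted p = 0.675).

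Dusp5 (ENSMUSG00000034765.6, chr19:53529109-53542431, plus strand), an ERK-selective nuclear phosphatase, was the member called different between the nerves. Its level was 96.2, 75.9, 74.7 and 79.9 CPM in sciatic nerve, 175, 149, 217 and 126 CPM in optic nerve, and 0.453, 1.03, 0.606, 0.530 and 0.418 CPM in brain. Every sciatic nerve library lay below every optic nerve library, as for 14.4% of all genes, and every brain library lay far below both. The log2 fold change of sciatic against optic nerve was -1.03 (SE 0.22, adjusted p = 0.00329), with means of 81.7 ± 9.97 and 167 ± 38.8 CPM (SD, n = 4 each). Against the brain mean of 0.608 ± 0.248 CPM (n = 5), the log2 fold change was 7.02 (SE 0.27, adjusted p = 4.06e-11) in sciatic nerve and 8.05 (SE 0.28, adjusted p = 4.18e-11) in optic nerve. Exons of Dusp5 share 547 bases with the antisense gene AC137853.2, and the strand setting of the counting is not given, so reads of the pair cannot be told apart. The same limit touches 66 exonic bases that Dusp8 shares with Gm32786 and 11 that Dusp1 shares with Ergic1.

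Dusp4 (ENSMUSG00000031530.6, chr8:34807297-34819894, plus strand), a nuclear phosphatase induced by ERK, was near the limit of detection. It had 0.719, 0.969, 0.216 and 1.93 CPM in sciatic nerve, 0, 1.18, 2.12 and 1.48 CPM in optic nerve, and 0.227, 0, 0, 0 and 0.0835 CPM in brain, where the 5 libraries held 5 counts in all. The tissues overlapped: optic nerve library 1 was at 0, and sciatic nerve library 3 lay below brain library 1. The log2 fold change over brain was 4.02 (SE 1.35, adjusted p = 0.0234) in sciatic nerve and 4.33 (SE 1.36, adjusted p = 0.0218) in optic nerve. Dusp4 passed the filter on low counts only through the nerve libraries, where it was higher, so these calls carry little weight. With only a nerve and brain in the fit, the filter left it out. The adjusted p was 0.0716 for sciatic nerve without sciatic nerve library 4, and 0.0611 for optic nerve without optic nerve library 3. Sciatic against optic nerve gave -0.31 with a 95% interval from -2.96 to 2.34, which holds a difference in either direction.

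Dusp6 and Dusp7, the cytosolic phosphatases of ERK, were the members that were lower in the nerves. Dusp6 (ENSMUSG00000019960.8, chr10:99263231-99267489, plus strand), a widely used readout of ERK activity, had 88.5, 85.2, 76.2 and 105 CPM in sciatic nerve, 101, 108, 62.5 and 197 CPM in optic nerve, and 473, 674, 971, 1056 and 1075 CPM in brain. The nerves overlapped each other and lay below every brain library, and brain libraries 1 and 2 were the lowest of the brain. The mean was 88.8 ± 12.1 CPM in sciatic nerve and 117 ± 56.8 CPM in optic nerve (SD, n = 4 each), against 849.8 ± 265 CPM in brain (SD, n = 5). The log2 fold change over brain was -3.26 (SE 0.33, adjusted p = 1.15e-06) in sciatic nerve and -2.86 (SE 0.32, adjusted p = 8.3e-06) in optic nerve, and -3.54 and -3.13 without brain libraries 1 and 2. Sciatic against optic nerve gave -0.40 (95% interval -1.06 to 0.27, adjusted p = 0.421).

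Dusp7 (ENSMUSG00000053716.9, chr9:106368632-106375724, plus strand), the nearest relative of Dusp6 in its location and preference for ERK, had 48.2, 58.3, 48.8 and 28.6 CPM in sciatic nerve, 38.9, 44.4, 44.5 and 54.6 CPM in optic nerve, and 118, 199, 221, 223 and 185 CPM in brain. Again the nerves overlapped each other and no nerve library reached the lowest brain library, which was brain library 1. Over brain, the log2 fold change was -2.04 (SE 0.23, adjusted p = 3.87e-06) in sciatic nerve and -2.05 (SE 0.23, adjusted p = 8.11e-06) in optic nerve. Between the nerves it was 0.01, with a 95% interval of -0.48 to 0.50.

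Among the members with a preference for JNK and p38, Dusp8 (ENSMUSG00000037887.11, chr7:142079490-142095843, minus strand) had 20.7, 23.7, 26.0 and 13.7 CPM in sciatic nerve, 28.5, 18.2, 18.3 and 39.8 CPM in optic nerve, and 0.755, 0.107, 0.326, 1.70 and 0.334 CPM in brain. The nerves overlapped each other and every nerve library was above every brain library. Sciatic nerve over brain and optic nerve over brain gave log2 fold changes of 5.02 (SE 0.59, adjusted p = 5.4e-06) and 5.33 (SE 0.59, adjusted p = 7.17e-06). Sciatic over optic nerve gave -0.32 (95% interval -1.44 to 0.81, adjusted p = 0.739).

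Dusp16 (ENSMUSG00000030203.17, chr6:134715468-134792625, minus strand), a phosphatase of JNK in macrophages, differed less between nerve and brain. It had 67.7, 88.3, 76.3 and 65.1 CPM in sciatic nerve, 67.0, 62.1, 34.6 and 53.1 CPM in optic nerve, and 22.8, 21.3, 9.0, 11.4 and 7.97 CPM in brain. Nerve and brain libraries did not overlap, the nerves overlapped each other, and brain libraries 1 and 2 were the highest of the brain. The log2 fold change over brain was 2.36 (SE 0.31, adjusted p = 2.01e-05) in sciatic nerve and 1.91 (SE 0.31, adjusted p = 0.000265) in optic nerve, and 2.97 and 2.53 without brain libraries 1 and 2.

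Dusp10 (ENSMUSG00000039384.8, chr1:184013302-184075636, plus strand), a phosphatase of JNK and p38 with a role in innate immunity, had the smallest change of the members that rose. It had 8.17, 10.7, 5.62 and 7.0 CPM in sciatic nerve, 3.17, 5.32, 3.74 and 4.97 CPM in optic nerve, and 2.12, 4.34, 1.59, 2.54 and 1.25 CPM in brain. Every sciatic nerve library lay above every optic nerve and every brain library, while optic nerve and brain overlapped through brain library 2. Over brain, sciatic nerve gave a log2 fold change of 1.73 (SE 0.43, adjusted p = 0.00421). In optic nerve it was 0.86 (SE 0.43, adjusted p = 0.132), and 1.2 with an adjusted p of 0.0372 without brain library 2. Sciatic against optic nerve gave 0.87 (95% interval -0.10 to 1.84, adjusted p = 0.205).

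**Figure D3:**
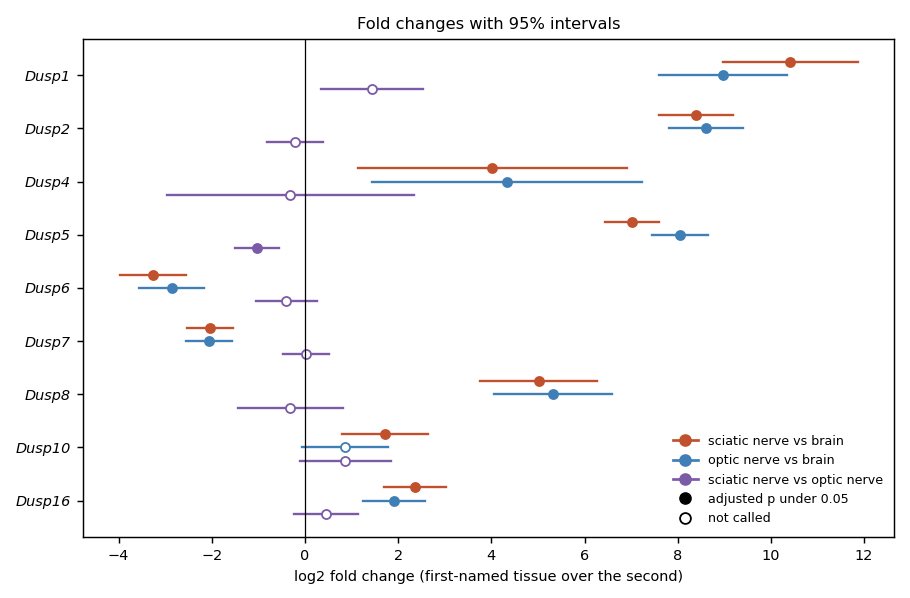
Fold changes of the 9 members in the 3 comparisons. The x axis is the log2 fold change of the first-named tissue over the second, bars are 95% intervals of the edgeR fit, and filled points have an adjusted p under 0.05. The points of Dusp6 and Dusp7 against brain lie left of 0, those of the other members right of it, and Dusp5 has the filled point between the nerves.

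Libraries did not overlap between sciatic nerve and brain for 8 of 9 members, between optic nerve and brain for 7 and between the nerves for 3, which were Dusp1, Dusp5 and Dusp10. Over all genes tested these shares were 41.3% (22.1% higher, 19.2% lower), 31.8% (17.4% and 14.4%) and 29.9% (15.5% and 14.4%), so the share between the nerves was near the background.

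To compare levels between members, CPM was divided by the exonic length of each gene in kb. In sciatic nerve Dusp1 came first with 1957 ± 347 CPM per kb, followed by Dusp2 (126 ± 10.3), Dusp5 (33.0 ± 4.03), Dusp6 (28.4 ± 3.86), Dusp7 (13.7 ± 3.71), Dusp16 (9.54 ± 1.34), Dusp8 (4.32 ± 1.10), Dusp10 (2.58 ± 0.702) and Dusp4 (0.350 ± 0.263), all in CPM per kb (SD, n = 4). The ranges of Dusp5 and Dusp6, of Dusp7 and Dusp16 and of Dusp8 and Dusp10 overlapped. In optic nerve the order was the same, with 721.5 ± 66.8 CPM per kb for Dusp1, 145 ± 25.5 for Dusp2, 67.4 ± 15.7 for Dusp5, 37.3 ± 18.1 for Dusp6 and 13.6 ± 1.94 for Dusp7 (SD, n = 4). There the ranges of Dusp5 and Dusp6 and of Dusp16 and Dusp8 overlapped. In brain Dusp6 came first with 271 ± 84.6 CPM per kb and Dusp7 next with 56.4 ± 12.7 (SD, n = 5), both apart from their neighbours in the order. Dusp16 (1.86), Dusp1 (1.48), Dusp10 (0.778), Dusp2 (0.383), Dusp5 (0.246), Dusp8 (0.133) and Dusp4 (0.0226 CPM per kb) followed, and each overlapped the next.

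Summed over the 9 members, the level was 2174 ± 359 CPM per kb in sciatic nerve, 999.4 ± 82.0 in optic nerve and 333 ± 92.8 in brain (SD, n = 4, 4 and 5). Dusp1 made up 89.9% ± 1.06 of that sum in sciatic nerve, 72.2% ± 1.10 in optic nerve and 0.566% ± 0.743 in brain. Dusp2 made up 5.86% ± 0.553, 14.5% ± 1.76 and 0.142% ± 0.124, and Dusp5 1.53% ± 0.191, 6.70% ± 1.13 and 0.0805% ± 0.0431, in the same tissues. Dusp6 made up 1.34% ± 0.376 in sciatic nerve and 3.85% ± 2.15 in optic nerve, against 80.9% ± 3.59 in brain. Dusp7 made up 0.630% ± 0.155 and 1.37% ± 0.276 in the nerves, against 17.3% ± 2.71 in brain. The family was thus made up mostly of Dusp1 in both nerves and of Dusp6 in brain, in each of the 13 libraries.

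**Figure D4:**
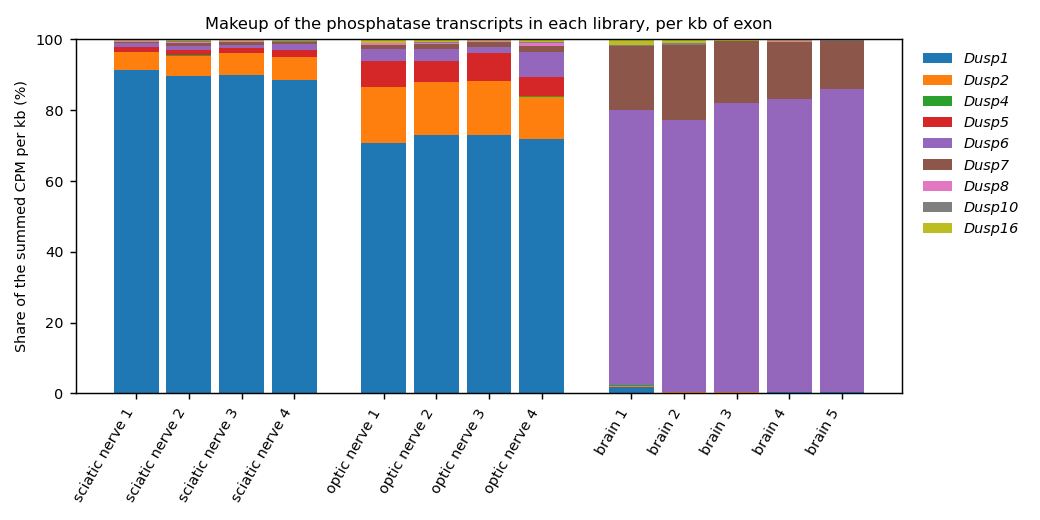
Makeup of the summed level of the 9 members in each library. The y axis is the share of the summed CPM per kb of exon in percent, and each bar is a library. Dusp1 takes 88.7 to 91.2% in sciatic nerve and 70.7 to 73.0% in optic nerve, and Dusp6 takes 76.9 to 85.6% in brain.

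The early response genes, a list of 22 transcripts that cells induce within minutes of a stimulus, moved with the members that were higher in the nerves. Against brain, 21 of them rose and 1 fell in sciatic nerve, and 21 were higher in optic nerve than in brain, with Rhob, a small GTPase, as the gene that was not called there. Of all genes tested, 24.1% rose and 24.3% fell in sciatic nerve against brain, and 19.6% and 17.4% in optic nerve. The median log2 fold change of the list was 6.12 for sciatic nerve over brain, 6.01 for optic nerve over brain and 0.25 between the nerves. No member is on that list. Its summed level was 28300 to 33000 CPM in sciatic nerve and 16000 to 20600 CPM in optic nerve, against 1150 to 1490 CPM in brain. Fos, an AP-1 subunit, averaged 3347 ± 370 and 1427 ± 415 CPM in sciatic and optic nerve, against 1.22 ± 1.00 CPM in brain. Between the nerves 8 of the 22 genes were higher in sciatic nerve and 2 lower, against 10.9% of all genes in each direction. Zfp36, which encodes tristetraprolin, averaged 5524 ± 470 CPM in sciatic nerve and 1355 ± 244 CPM in optic nerve, against 85.8 ± 15.3 CPM in brain. Such transcripts can also be induced while cells are isolated, and the part of this in the levels of the members was not tested.

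Of 7 MAP kinases tested, 1 rose and 1 fell in sciatic nerve against brain, and 1 was called in optic nerve against brain, where it was lower. The shares of all genes called higher and lower were 24.1% and 24.3% in sciatic nerve, and 19.6% and 17.4% in optic nerve. Their median log2 fold changes over brain were -0.26 in sciatic nerve and -0.38 in optic nerve, against -0.09 and -0.08 for all genes. Mapk14, which encodes p38 alpha, was lower in optic nerve than in brain, with a log2 fold change of -0.78 (SE 0.19, adjusted p = 0.00586). Mapk12, a further p38 kinase, was at 0 in sciatic nerve, against 0.659 ± 0.409 CPM in brain, and was called lower in sciatic nerve.

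Of 7 MAP kinase kinases tested, 2 rose and 2 fell in sciatic nerve against brain, and 2 rose and 1 fell in optic nerve. For this list and the next, the shares of all genes called higher and lower were 24.1% and 24.3% in sciatic nerve. In optic nerve they were 19.6% and 17.4%. Map2k3, an activator of p38, averaged 584 ± 78.9 and 587 ± 190 CPM in sciatic and optic nerve, against 47.1 ± 15.5 CPM in brain, with log2 fold changes of 3.63 (SE 0.27) and 3.64 (SE 0.27). Map2k7, an activator of JNK, was higher by 1.83 and 1.77 in log2. Map2k6, the other activator of p38, was lower, with log2 fold changes of -1.02 and -1.16. Of 14 MAP kinase kinase kinases tested, 2 rose and 1 fell in sciatic nerve against brain, and 1 rose and 2 fell in optic nerve. Map3k8, which links Toll-like receptors to ERK, averaged 236 ± 12.6 and 194 ± 23.4 CPM in sciatic and optic nerve, against 5.57 ± 1.56 CPM in brain, with log2 fold changes of 5.40 (SE 0.21) and 5.11 (SE 0.21).

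Downstream of the MAP kinases, 4 of 10 MAPK-activated kinases rose and 1 fell in sciatic nerve against brain, and 3 were called in optic nerve against brain, all of them higher. Mapkapk2, a target of p38 that stabilises AU-rich mRNAs, averaged 922 ± 107 CPM in sciatic nerve and 568 ± 52.5 CPM in optic nerve, against 109 ± 25.1 CPM in brain, and its log2 fold change was 3.08 (SE 0.18), 2.38 (SE 0.17) and, between the nerves, 0.70 (SE 0.18, adjusted p = 0.0098). Rps6ka1, an ERK-activated kinase, went the other way in sciatic nerve, with 96.9 ± 15.4 CPM there and 464 ± 48.1 CPM in optic nerve, against 649.9 ± 161 CPM in brain. Of 8 tested transcripts known as outputs of ERK, 5 rose and 2 fell in sciatic nerve against brain, and 5 rose and 1 fell in optic nerve, with a median log2 fold change of 3.59 and 3.63. That list shares Egr1 and Ier3 with the early response genes. For both lists, the shares of all genes called higher and lower were 24.1% and 24.3% in sciatic nerve against brain. In optic nerve against brain they were 19.6% and 17.4%. Phlda1, an ERK output, averaged 99.6 ± 6.99 CPM in sciatic nerve and 21.4 ± 4.5 CPM in optic nerve, against 0.0370 ± 0.0528 CPM in brain. Etv5, an ETS factor that like Dusp6 is used as a readout of ERK, was lower than in brain, with a log2 fold change of -1.14 (SE 0.27, adjusted p = 0.00259) in sciatic nerve and -1.29 (SE 0.27, adjusted p = 0.00187) in optic nerve.

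Among other negative regulators, 3 of 4 tested genes of the list of Sprouty and Spred genes, which also holds Errfi1, were called in sciatic nerve against brain and 1 in optic nerve against brain, all of them higher in the nerve. Errfi1, an inhibitor of the EGF receptor, averaged 1255 ± 252 CPM in sciatic nerve and 363 ± 30.8 CPM in optic nerve, against 43.8 ± 8.88 CPM in brain. Spred1, an inhibitor of Ras signalling, averaged 378 ± 92.5, 83.5 ± 8.07 and 111 ± 39.4 CPM in the same order and was called higher in sciatic nerve than in optic nerve by 2.18 in log2 (SE 0.29, adjusted p = 5.59e-05). Of 4 other phosphatases of MAP kinases tested, 2 were higher in sciatic nerve and 1 in optic nerve than in brain, and 2 were higher in sciatic than in optic nerve. Ptpn7, a tyrosine phosphatase of ERK and p38 in blood cells, averaged 55.9 ± 9.19 and 3.90 ± 2.50 CPM in sciatic and optic nerve, against 0.00835 ± 0.0187 CPM in brain, which is below the level that 3 counts in the brain group stand for (0.0265 CPM). Of 13 other dual-specificity phosphatases tested, 6 rose and 3 fell in sciatic nerve against brain, and 3 rose and 2 fell in optic nerve. Their median log2 fold changes over brain were 0.36 and 0.29. Beside the counts of these lists, 24.1% of all genes were called higher and 24.3% lower in sciatic nerve against brain. The shares were 19.6% and 17.4% in optic nerve against brain, and 10.9% in each direction between the nerves. Dusp22 averaged 63.3 ± 3.85 CPM in sciatic nerve and 15.5 ± 3.56 CPM in optic nerve, with a log2 fold change of 2.03 (SE 0.21, adjusted p = 4.55e-06). Dusp27 averaged 0.0167 ± 0.0333 CPM in sciatic nerve and 9.33 ± 4.85 CPM in optic nerve, against 15.4 ± 5.97 CPM in brain. It was called lower in sciatic nerve than in either, where its mean was below the level that 3 counts in the sciatic nerve group stand for (0.0512 CPM).

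**Figure D5:**
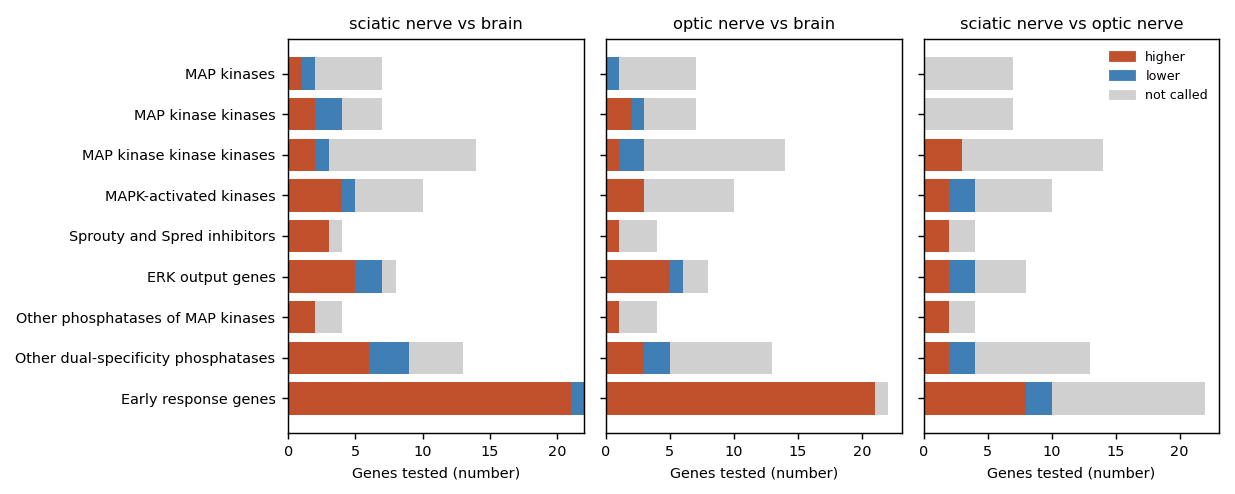
Calls among the genes of 9 pathway lists in the 3 comparisons. The x axis is the number of genes tested, and the bar is divided into genes called higher in the first-named tissue, called lower and not called. The list of 22 early response genes is almost wholly higher in the nerves, with 21 genes in each comparison with brain, whereas 5 of 7 MAP kinases were not called in sciatic nerve against brain. Of all genes tested, 48.4% were called in sciatic nerve against brain and 36.9% in optic nerve against brain.

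The genes whose level over the 13 libraries was most like that of each member are given by the Pearson correlation of log2 CPM, as a description, since the points share their tissue and differences between tissues set most of it. Nearest to Dusp1 were Sde2 (0.998), Gpr65 (0.992) and Cyp4f18 (0.992), and nearest to Dusp2 were Gadd45b (0.995), Jund (0.994) and Casp4 (0.994). Nearest to Dusp5 were Ifrd1 (0.997), Plaur (0.995) and Zc3h12a (0.994), and nearest to Dusp8 were Fosl1 (0.979), Ier2 (0.970) and Emilin2 (0.967). Gadd45b, Jund and Ier2 are on the list of early response genes and Fosl1 is on that of ERK outputs. Ifrd1 had means of 1003 CPM in sciatic nerve and 1992 CPM in optic nerve, against 23.2 CPM in brain. Nearest to Dusp16 were Noct (0.977), Kdm6b (0.970) and Stmn1 (0.968), and nearest to Dusp10 were Cisd3 (0.973), Fibp (0.924) and Ms4a7 (0.921). For Dusp4, at its low level, they were BC029214 (0.921), Ankle1 (0.914) and Bub1 (0.913).

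Nearest to the members that were higher in brain were other genes than these. For Dusp6 they were Tubgcp5 (0.981), Rab14 (0.979) and Akirin2 (0.976), and for Dusp7 they were Etnk1 (0.987), Zfp207 (0.981) and Tor4a (0.981). Each of the 6 had its highest mean in brain, as with Tor4a at 31.0 CPM in sciatic nerve and 34.3 CPM in optic nerve, against 162 CPM in brain.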

How the data were processed

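The authors deposited raw read counts per gene symbol, made with STAR and featureCounts 1.5.1 on mm10, per the submitters' processing notes. STAR's version, annotation, strandedness and multi-mapping reads were not given in the sources used here. Brain columns, 5 in all, were assigned by elimination and are numbered as in the table, and 0 per-sample columns were left unused. The analysis ran in edgeR 4.0.16 (R 4.3.3): filterByExpr by tissue, TMM scaling, and a quasi-likelihood fit of all 13 libraries by tissue without a replicate block, with Benjamini-Hochberg adjustment over 13246 genes. The filter sees the tissues, so a gene could pass through the tissue where it is high, as Dusp4 did through the nerves. Alternatives used limma 3.58.1, DESeq2 1.42.0, other scalings, filters and libraries, and the closing section gives their effect. The fit was tested on simulated data. Exonic lengths came from the GENCODE annotation of GRCm38, the same build as mm10, and promoters from RefSeq. Where a whole group has no count, sciatic nerve allows a level of up to 0.0512 CPM, optic nerve 0.0409 CPM and brain 0.0265 CPM (3 counts, counting error only).

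The members and lists were chosen with earlier results of these data known. Text names all 9 members, the 3 genes nearest to each by correlation of log2 CPM (prior count 2), and from each pathway list those among the called genes with the largest fold changes, up to 2 a direction and comparison. Some results that this rule would name are not reported here.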

Additional observations from a re-analysis of the deposited data

How the results depend on the processing

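Against brain, Dusp1, Dusp2, Dusp5, Dusp6, Dusp7, Dusp8 and Dusp16 kept their direction and their call in both nerves under every alternative run and without each library in turn, and so did Dusp10 in sciatic nerve. The number of members called higher in sciatic than in optic nerve, 0 as reported, was 1 (Dusp1) with no filter on low counts, with only the 2 tissues compared in the fit, with limma voom and without brain libraries 1 and 2, and ran from 0 to 1 when each library was left out in turn. Over all alternatives with a test, Dusp1 kept a log2 fold change of 1.26 to 1.53 between the nerves, with adjusted p from 1.58e-05 to 0.123, and Dusp5 one of -1.21 to -0.88, with adjusted p from 0.000124 to 0.0159. Dusp4 in optic nerve against brain lost its call with limma voom (adjusted p = 0.0673) and with the replicate block (adjusted p = 0.0645), and the cause was not tested. With only 2 tissues in the fit, the filter left Dusp4 out of both comparisons with brain. Among the differences between the nerves that were not called, those of Dusp7 and Dusp4 changed sign. Dusp7 gave -0.17 with library totals, -0.0155 with only the nerves fitted, -0.0217 with limma voom and -0.0164 with the replicate block, and -0.12 to 0.18 with a library left out. Dusp4 gave 0.55 with limma voom, 0.15 with the replicate block, and -0.91 to 0.11 with a library left out. With library totals alone the median of all genes was -0.53, -0.33 and -0.19 in the 3 comparisons, against -0.09, -0.08 and 0.00 with TMM, and every call of a member held. Same-numbered sciatic and optic nerve libraries did not deviate together (correlations -0.07 to 0.02). The labels do not say what the numbers mark, and these correlations cannot exclude a shared animal or day. With the block of replicate numbers for the nerves, 7 members rose and 2 fell in sciatic nerve against brain, 5 rose and 2 fell in optic nerve against brain, and 0 rose and 1 fell in sciatic against optic nerve. In the order per kb, Dusp7 and Dusp16 changed places in sciatic nerve with the longest coding transcript as length, as did Dusp5 with Dusp6 and Dusp7 with Dusp16 with the shortest, and Dusp7 with Dusp16 in optic nerve with the shortest. Dusp4 had 5 counts in brain in all, and the SE of its fold changes over brain was 1.35 and 1.36.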
